A study of Homo sapiens with 12 samples.

Results

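Axon guidance genes encode the cell-surface and secreted cues that steer growing axons, and many of them are also made by epithelial and tumour cells. The 74 genes described here were chosen by symbol, with earlier results of these data known, out of 23228 gene symbols in the count files. They comprise the ephrins (EFN) and their Eph receptors, class 3 to 7 semaphorins with the plexins and neuropilins, the netrins with DCC, NEO1 and UNC5 receptors, the SLIT ligands with the ROBO receptors, and the teneurins, which the files list under their older symbols ODZ1 to ODZ4. Of the 74, 58 had enough counts to be tested, among 14874 tested genes. Those 58 were 28 ligands of 35, 28 receptors of 35 and 2 teneurins of 4. Of these 58, 56 reached the count cut in all 3 DMSO libraries, and NTN3 and PLXNA4 did not.

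RNA was sequenced from SUM149PT, an established human cell line from an inflammatory, basal-like breast cancer. There were 4 sets of 3 libraries. The ipatasertib libraries came from cells given ipatasertib, which blocks the AKT kinases, at 5 µM for 24 h. The tazemetostat libraries came from cells kept from day -5 in 5 µM tazemetostat, an inhibitor of EZH2, the enzyme that places the repressive H3K27 methyl mark. The combination libraries came from cells with both inhibitors on these schedules, and DMSO libraries came from cells given the solvent. Every set was passaged on day -3 and day -1, moved to medium with 2% serum on day 0 and collected 24 h later, so the tazemetostat exposure was longer than that to ipatasertib. A single cell line was used, and the labels do not say that libraries A, B and C were separate cultures. The p-values therefore measure the spread between these libraries, which may be technical.

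Ephrins and Eph receptors signal in both directions at contacts between cells, and Eph receptors form the largest family of receptor tyrosine kinases. Semaphorins bind plexins, and most secreted class 3 semaphorins need a neuropilin as co-receptor. Netrins attract through DCC and NEO1 and repel through UNC5 receptors, SLIT proteins repel through ROBO receptors, and teneurins bind latrophilins on a neighbouring cell. In epithelium these same pairs take part in cell sorting, adhesion and migration.

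Gene counts per library summed to 22355242 to 49970540. The share of reads not assigned to a gene differed by set. It was 37.4% to 38.6% in the ipatasertib libraries, 29.8% to 30.7% in those of tazemetostat and 35.7% to 38.0% in those of the combination, against 31.0% to 32.9% under DMSO, and its part in the results was not tested. The libraries tazemetostat A and combination B were the least like their own sets, with a chi-square per degree of freedom of 14.4 to 24.9 in their pairs, against 2.64 to 6.68 in the other pairs. All 8 epithelial markers were above 1 CPM (gene counts scaled to a common library size, with TMM factors that correct for RNA composition), though their summed level was 1822 to 1946 CPM with ipatasertib, 2421 to 2634 CPM with tazemetostat and 1799 to 1895 with both, against 2862 to 2977 CPM under DMSO. KRT5 averaged 146 CPM with ipatasertib, 480.1 with tazemetostat and 54.6 with both, against 633 CPM under DMSO, and KRT14 averaged 3.58, 18.7 and 2.603 CPM in the same sets, against 22.8 CPM under DMSO. CDH1, KRT8 and KRT18 also averaged lower in every treated set. TP63 went the other way, at 26.1 CPM with ipatasertib, 27.9 with tazemetostat and 27.2 with both, against 15.9 CPM under DMSO. EGFR averaged 215, 176 and 280 CPM in the same sets, against 193 CPM under DMSO. EPCAM averaged 337, 311 and 343 CPM, against 323 CPM under DMSO. The part of these levels in the results was not tested. PGR averaged at most 0.0817 CPM in any set and ESR1 averaged between 3.41 and 5.58 CPM. In GENCODE v29, 23 of the 74 genes overlap a gene on the opposite strand, and the strand setting of the counting is not known, so their reads may include that gene's. ODZ3, NRP1, NRP2, EFNB2, EPHA4, EPHB2, ROBO4, SEMA3F, SLIT3 and UNC5C are among them.

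Of the 58 tested axon guidance genes, 58.6% differed from DMSO with ipatasertib, 77.6% with tazemetostat and 86.2% with both, in no common direction. Those shares were 54.1%, 46.0% and 71.0% of all tested genes. With ipatasertib, 11 of 58 rose and 23 fell by edgeR's quasi-likelihood test at an adjusted p of 0.05 or less, where 25.4% of all tested genes rose and 28.7% fell. With tazemetostat, 20 rose and 25 fell, where 25.1% of all genes rose and 20.9% fell. With the combination, 29 rose and 21 fell, where 36.5% of all genes rose and 34.5% fell. PLXNA4 is among the higher genes with tazemetostat and with the combination, here and in later counts. That gene reached the count cut in all 3 libraries of the combination alone. The median log2 change over the 58 genes was -0.09 with ipatasertib, -0.17 with tazemetostat and 0.20 with both, and that of all tested genes was -0.01, 0.02 and 0.02. The 3 comparisons share the same DMSO libraries. By role, 4 of 28 receptors rose and 10 fell with ipatasertib, 11 rose and 14 fell with tazemetostat, and 15 rose and 11 fell with the combination. Of 28 ligands, 7 rose and 11 fell with ipatasertib, 8 rose and 10 fell with tazemetostat, and 13 rose and 9 fell with the combination.

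The split into higher and lower calls depended on how libraries were scaled. With total counts in place of TMM factors, 17 rose and 14 fell with ipatasertib, 22 rose and 17 fell with tazemetostat, and 30 rose and 17 fell with the combination. That scaling moved the median of all genes by 0.12, 0.07 and 0.14 on the log2 scale. The 23 genes lower with ipatasertib became 15 without DMSO A, without DMSO B, without ipatasertib C or without combination C. The 11 genes higher became 17 without both tazemetostat A and combination B.

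Changes of 2-fold or more were fewer. With ipatasertib 3 genes rose that far and 4 fell, with 4.53% and 2.10% of all genes doing so. With tazemetostat 7 rose and 2 fell, with 6.69% and 1.07% of all genes doing so. With the combination 13 rose and 7 fell, with 13.8% and 5.11% of all genes doing so. PLXNA4 is among the 7 that rose with tazemetostat and the 13 that rose with the combination.

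**Figure D1:**
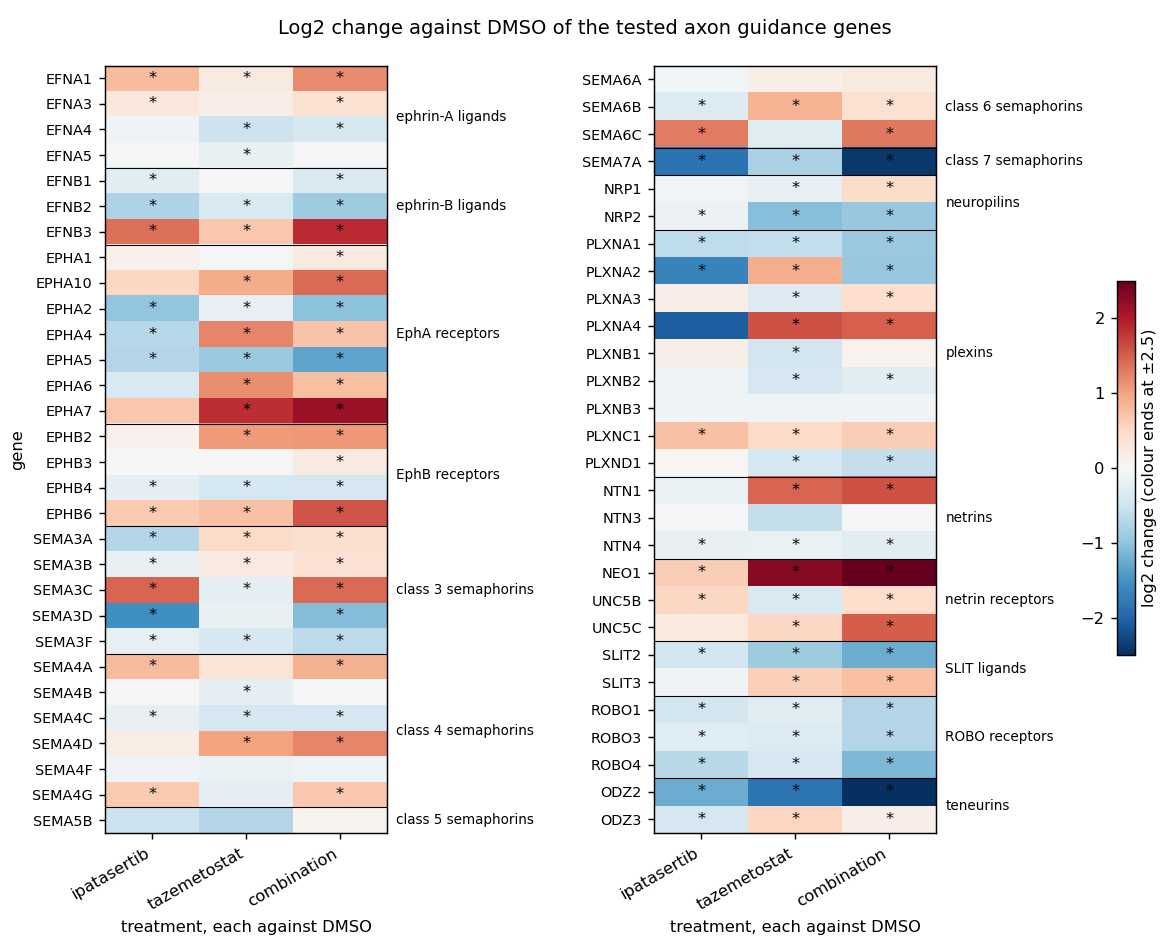
Log2 change of the 58 tested axon guidance genes with ipatasertib, tazemetostat and the combination, each against DMSO, ordered by family (n = 3 libraries per set). A star marks an adjusted p of 0.05 or less, and the colour scale ends at 2.5 in either direction. PLXNA4 is starred although it reached the count cut in all libraries of the combination alone. The darkest fields are ODZ2 at -3.66 and NEO1 at 2.83, both with the combination.

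Levels per kilobase of transcript order the genes approximately, since the transcript lengths come from GENCODE v29 and not from the authors' annotation. Under DMSO the highest was EPHA2 at 106.5 ± 3.10 CPM per kb (SD, n = 3). It was followed by SLIT2 at 64.4 ± 0.860, EFNB2 at 61.7 ± 2.65 and EPHB4 at 61.6 ± 2.10 CPM per kb, whose ranges of mean ± SD overlap. With the combination the first ranks were NRP1 at 53.1 ± 1.13 and EPHA2 at 52.4 ± 5.89 CPM per kb, which did not differ beyond their spread. ODZ2 held rank 38 with the combination and rank 9 under DMSO, and SEMA7A rank 33 with the combination and rank 10 under DMSO.

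**Figure D2:**
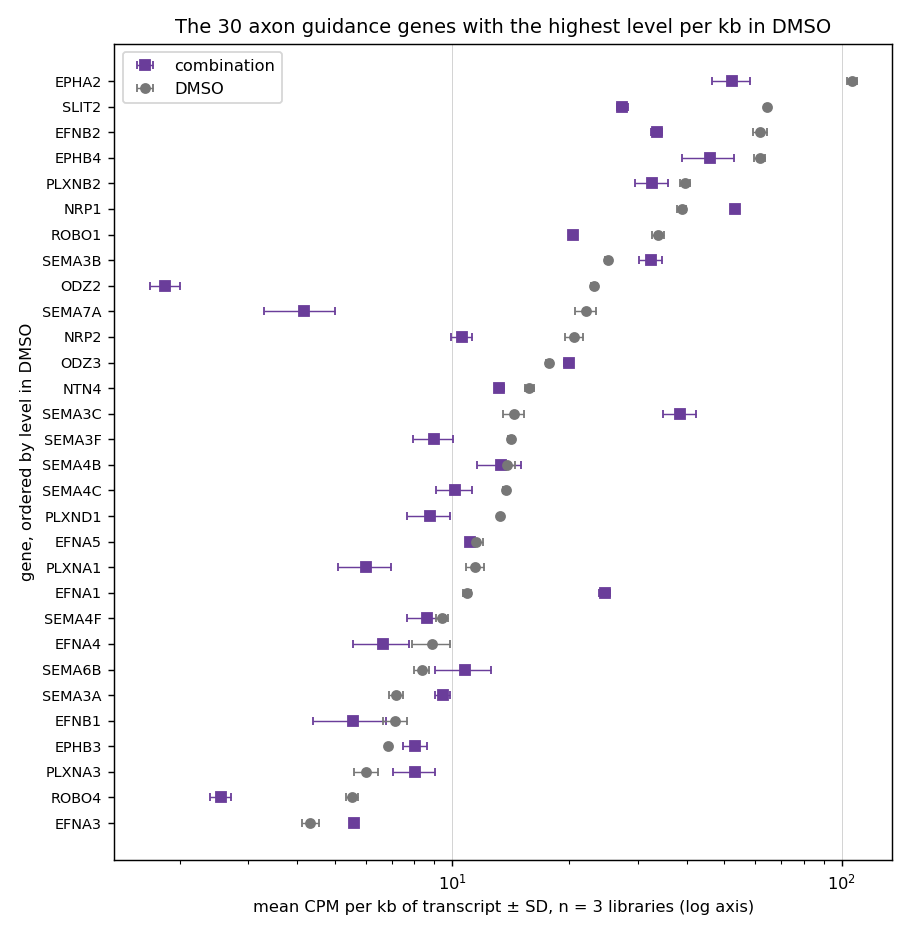
Mean CPM per kilobase ± SD (n = 3 libraries, log axis) with the combination (squares) and under DMSO (circles) for the 30 tested genes with the highest level under DMSO. ODZ2 stood at 1.84 CPM per kb with the combination, against 23.2 under DMSO, and SEMA3C at 38.5 with the combination, against 14.4 under DMSO.

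ODZ2, a teneurin, fell with each inhibitor and furthest with both. Its level was 82.1, 82.8 and 85.5 CPM with ipatasertib, 51.7, 61.1 and 55.3 CPM with tazemetostat and 14.1, 16.8 and 16.2 CPM with the combination, against 194, 201 and 199 CPM under DMSO. The 4 sets did not overlap, and the combination libraries were the lowest. The log2 change was -1.25 ± 0.07 with ipatasertib, -1.82 ± 0.07 with tazemetostat and -3.66 ± 0.08 with both (SE, edgeR adjusted p = 3.43e-18 for the combination). The combination was also below ipatasertib alone, by 5.31-fold, and below tazemetostat alone, by 3.56-fold.

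ODZ3, the other tested teneurin, went in opposite directions under the single inhibitors. It had 140, 138 and 152 CPM with ipatasertib, 258, 297 and 291 CPM with tazemetostat and 211, 218 and 223 CPM with the combination, against 189, 196 and 195 CPM under DMSO. All ipatasertib libraries lay below DMSO, and all tazemetostat libraries above it (log2 changes -0.43 ± 0.06 and 0.55 ± 0.06). The change with the combination was 0.17 ± 0.06 (edgeR adjusted p = 0.0179). The 3 latrophilins bind teneurins and were named after their values were seen. LPHN1 and LPHN3 averaged highest with tazemetostat, and LPHN2 averaged highest under DMSO. For each of the 3, libraries of some sets overlapped. LPHN3 averaged 5.22 CPM with ipatasertib, 18.0 with tazemetostat and 9.65 with both, against 9.67 CPM under DMSO. LPHN1 averaged 33.6 CPM with ipatasertib, 48.6 with tazemetostat and 40.6 with both, against 33.8 CPM under DMSO. LPHN2, the most abundant, averaged 106 CPM with ipatasertib, 115 with tazemetostat and 107 with both, against 124 CPM under DMSO.

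Over the 12 libraries, log2 CPM of ODZ2 was most like that of SLIT2 (Pearson r = 0.967), SEMA3F (0.925) and EPHA5 (0.914), as a description over libraries that share their treatments. The summed level of 7 fibroblast markers moved in a like order, at 343 to 381 CPM with ipatasertib, 112 to 118 CPM with tazemetostat and 80.3 to 86.5 with both, against 549 to 576 CPM under DMSO. COL1A1, the largest part, had that order, at 204 CPM with ipatasertib, 86.5 with tazemetostat and 50.3 with both, against 424 CPM under DMSO. DCN, the next largest part, was higher with ipatasertib, at 131 CPM, and lower with tazemetostat and with the combination, at 24.6 and 30.7 CPM, against 98.8 CPM under DMSO, and LUM and PDGFRB too were higher with ipatasertib than under DMSO. PDGFRA averaged between 0 and 0.0778 CPM in every set. Their part in the ODZ2 change was not tested. In bulk RNA, fewer cells with a transcript and less transcript per cell cannot be told apart.

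NEO1 had the largest rise of the 58 genes with tazemetostat and with the combination. It encodes neogenin, a receptor for netrins and for repulsive guidance molecules (RGM). The 250 bases before its start are shown because the gene rose with both inhibitors, and in it each CG is in capitals (RefSeq, GRCh38.p14, chr15:73051652-73051901, plus strand).
NEO1: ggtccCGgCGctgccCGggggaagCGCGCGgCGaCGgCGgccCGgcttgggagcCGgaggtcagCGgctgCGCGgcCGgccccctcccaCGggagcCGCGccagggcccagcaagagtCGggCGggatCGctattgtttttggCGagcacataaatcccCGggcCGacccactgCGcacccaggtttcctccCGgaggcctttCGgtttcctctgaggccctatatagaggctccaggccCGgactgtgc
This stretch holds 28 CG pairs. Among 22112 promoter windows of the same length, of genes with a single start in that table, the median was 9 CG pairs. Among the 40 axon guidance genes with a single start there, it was 23.

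NEO1 had 14.98, 17.2 and 16.6 CPM with ipatasertib, 50.8, 55.8 and 47.3 CPM with tazemetostat and 75.1, 76.9 and 74.8 CPM with the combination, against 10.1, 10.5 and 11.3 CPM under DMSO. The 4 sets did not overlap. The fold over DMSO was 1.52 with ipatasertib, 4.83 with tazemetostat and 7.12 with both (log2 changes 0.61 ± 0.08, 2.27 ± 0.08 and 2.83 ± 0.08, edgeR adjusted p = 1.92e-16 for the combination). Its interaction, the combination's log2 change minus the sum of the single changes, was -0.05 ± 0.11 (edgeR adjusted p = 0.865). NEO1 was most like SEMA4D (r = 0.988), EPHA7 (0.967) and EPHB2 (0.955) over the 12 libraries.

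Among the ligands of NEO1, NTN1 (netrin-1) had 0.326, 0.608 and 0.478 CPM with ipatasertib, 1.47, 1.56 and 1.20 CPM with tazemetostat and 1.75, 1.45 and 1.44 CPM with the combination, against 0.375, 0.481 and 0.719 CPM under DMSO. It rose 2.74-fold with tazemetostat and 3.01-fold with the combination (edgeR adjusted p = 0.000134 and 2.29e-05). The ipatasertib and DMSO libraries overlapped. RGMA, a ligand of the RGM family, had 7 counts in all with ipatasertib, 118 with tazemetostat and 87 with both, against 10 under DMSO. It passed the count filter only through the tazemetostat and combination libraries, so its counts are given with no test. RGMB, its relative, fell by 0.53, 0.33 and 0.80 on the log2 scale with ipatasertib, tazemetostat and the combination, and was named after its values were seen.

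**Figure D3:**
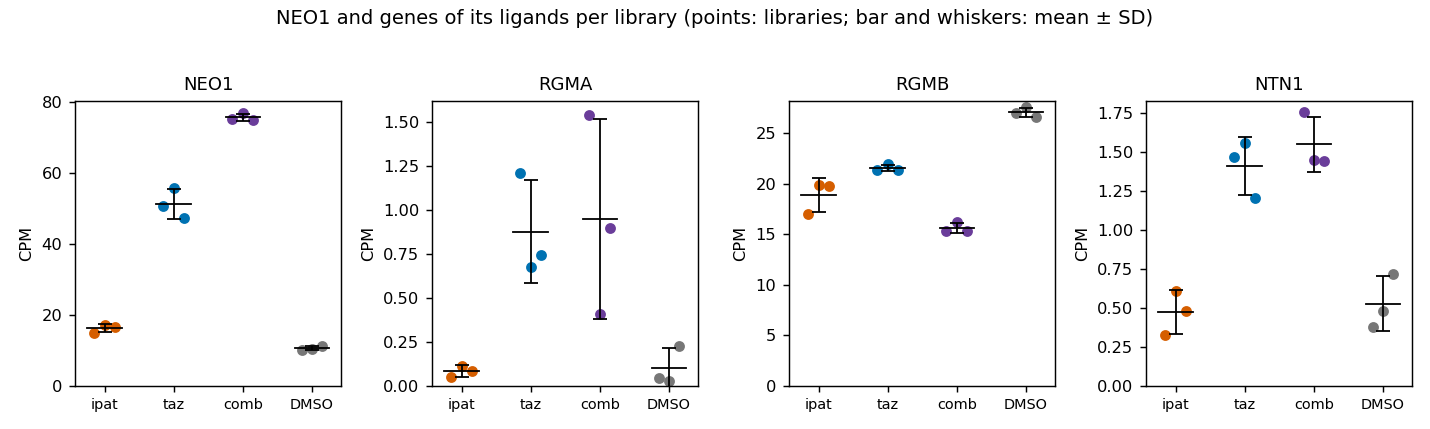
CPM per library of NEO1, RGMA, RGMB and NTN1 with ipatasertib, tazemetostat, the combination and DMSO (points are libraries; bar and whiskers are mean ± SD, n = 3). NEO1 averaged 75.6 CPM with the combination, against 10.6 CPM under DMSO, whereas RGMB averaged 15.6 CPM with the combination, against 27.1 CPM under DMSO.

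The dependence receptor UNC5C had 6.30, 6.92 and 7.82 CPM with ipatasertib, 6.82, 8.77 and 9.54 CPM with tazemetostat and 17.0, 16.6 and 16.9 CPM with the combination, against 5.13, 6.29 and 6.31 CPM under DMSO. Only the combination libraries stood clear of all the others. It rose 2.86-fold with the combination (log2 change 1.52 ± 0.12, edgeR adjusted p = 7.95e-10) and by 0.51 ± 0.12 with tazemetostat. UNC5B, a related receptor, had log2 changes of 0.51 ± 0.12, -0.38 ± 0.12 and 0.43 ± 0.12 in the 3 comparisons with DMSO. NTN4, the netrin with the highest level, averaged 50.6 ± 2.14 CPM with ipatasertib, 51.0 ± 3.13 with tazemetostat and 47.8 ± 1.21 with both, against 57.1 ± 1.51 CPM under DMSO (SD, n = 3). Its change with the combination was -0.26 ± 0.06 (edgeR adjusted p = 0.00123), and with total counts in place of TMM factors it was -0.12 (adjusted p = 0.0883).

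Of the ephrins, EFNB3 rose most. It had 32.1, 31.6 and 34.2 CPM with ipatasertib, 20.9, 19.8 and 18.9 CPM with tazemetostat and 50.9, 38.4 and 47.9 CPM with the combination, against 12.2, 13.1 and 12.2 CPM under DMSO. The 4 sets did not overlap. The rise was 2.61-fold with ipatasertib, 1.59-fold with tazemetostat and 3.67-fold with both (edgeR adjusted p = 6.89e-13 for the combination). EFNA1, the usual ligand of EPHA2, had 35.3, 39.3 and 34.4 CPM with ipatasertib, 26.1, 23.5 and 24.2 CPM with tazemetostat and 46.2, 49.2 and 46.9 CPM with the combination, against 20.5, 21.5 and 21.2 CPM under DMSO, with no overlap between sets. It rose 1.73-fold with ipatasertib and 2.25-fold with the combination (edgeR adjusted p = 2.01e-08 and 1.43e-11).

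EFNB2, the ephrin with the highest level, fell instead. It had 176, 183 and 185 CPM with ipatasertib, 231, 243 and 234 CPM with tazemetostat and 172, 169 and 161 CPM with the combination, against 297, 306 and 323 CPM under DMSO. Every treated library lay below every DMSO library. The log2 change was -0.77 ± 0.05, -0.39 ± 0.05 and -0.88 ± 0.05 with ipatasertib, tazemetostat and the combination (edgeR adjusted p = 2.43e-11 for the combination). EFNA5, the ephrin-A with the highest level, averaged 60.4 ± 2.44 CPM with ipatasertib, 54.2 ± 2.82 with tazemetostat and 59.5 ± 1.38 with both, against 61.6 ± 2.57 CPM under DMSO (SD, n = 3).

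EPHA2, an Eph receptor abundant in basal-like breast cancer lines, fell with ipatasertib and with the combination, and less with tazemetostat. It had 205, 222 and 216 CPM with ipatasertib, 392, 353 and 353 CPM with tazemetostat and 223, 181 and 220 CPM with the combination, against 433, 425 and 409 CPM under DMSO. The ipatasertib and combination libraries overlapped and lay below the others. All tazemetostat libraries lay below DMSO, with a log2 change of -0.29 to -0.21 when 1 library was left out. That call was lost with total counts (-0.13, edgeR adjusted p = 0.131) and without DMSO A, tazemetostat B or tazemetostat C. The log2 change was -0.98 ± 0.07 with ipatasertib and -1.02 ± 0.07 with the combination, and the combination differed from ipatasertib by -0.05 ± 0.07 (edgeR adjusted p = 0.648, which does not show that the levels were alike).

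Other Eph receptors rose with tazemetostat. EPHB2 had 13.8, 15.3 and 15.2 CPM with ipatasertib, 29.8, 27.2 and 28.8 CPM with tazemetostat and 29.6, 26.9 and 30.1 CPM with the combination, against 12.99, 16.1 and 11.7 CPM under DMSO. Ipatasertib and DMSO libraries overlapped, and so did tazemetostat and combination libraries. The rise was 2.10-fold with tazemetostat and 2.12-fold with the combination (edgeR adjusted p = 1.94e-08 and 3.77e-09). EPHB6, which lacks kinase activity, rose 1.58-fold with ipatasertib, 1.67-fold with tazemetostat and 2.96-fold with both (edgeR adjusted p = 1.73e-10 for the combination). Its combination libraries, at 20.0, 16.0 and 19.6 CPM, lay above the 8.65 to 11.1 CPM with ipatasertib, the 9.63 to 10.9 CPM with tazemetostat and the 5.69 to 6.74 CPM under DMSO.

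EPHA4, a receptor for ephrins of both classes, had 2.68, 2.47 and 1.96 CPM with ipatasertib, 8.32, 10.003 and 9.30 CPM with tazemetostat and 6.45, 6.51 and 6.59 CPM with the combination, against 3.26, 4.21 and 4.51 CPM under DMSO, with no overlap between sets. It fell with ipatasertib (log2 change -0.71 ± 0.15) and rose with tazemetostat (1.22 ± 0.12) and with the combination (0.72 ± 0.13, edgeR adjusted p = 6.17e-05). EPHA6 and EPHA7 were low, at most 2.53 CPM in any library, and both rose with tazemetostat (2.24-fold and 3.61-fold) and with the combination (1.69-fold and 4.45-fold). EPHA10, another Eph receptor without kinase activity, rose 1.90-fold with tazemetostat and 2.68-fold with the combination (edgeR adjusted p = 0.00343 and 2.04e-05). EPHA5 averaged 1.57 ± 0.275 CPM with ipatasertib, 1.35 ± 0.163 with tazemetostat and 1.04 ± 0.168 with both, against 2.57 ± 0.162 CPM under DMSO (SD, n = 3), and it fell in all 3 comparisons. An antisense gene overlaps EPHA5, and its reads may be among those of EPHA5, since the strand setting of the counting is not known. EPHB4, the EphB receptor with the highest level, fell 1.36-fold with tazemetostat and 1.34-fold with the combination, and it overlaps SLC12A9 on the opposite strand.

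The semaphorin SEMA7A, which is anchored to the membrane and binds PLXNC1 and integrins, fell with each treatment. It had 19.5, 22.1 and 21.1 CPM with ipatasertib, 47.1, 39.9 and 39.8 CPM with tazemetostat and 16.8, 11.05 and 14.2 CPM with the combination, against 77.4, 76.8 and 69.1 CPM under DMSO. The 4 sets did not overlap. The fall was 3.57-fold with ipatasertib, 1.76-fold with tazemetostat and 5.30-fold with both (log2 change -2.41 ± 0.11, edgeR adjusted p = 2.18e-13). PLXNC1, its plexin, averaged 7.18 ± 0.966 CPM with ipatasertib, 6.04 ± 1.17 with tazemetostat and 6.65 ± 0.525 with both, against 4.35 ± 0.331 CPM under DMSO (SD, n = 3), and it overlaps CEP83 on the opposite strand.

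Over the 12 libraries SEMA7A was most like ROBO4 (r = 0.981), EFNB2 (0.970) and EPHA2 (0.969). The 250 bases before the start of these 3 genes are shown because they were the most like SEMA7A (RefSeq, GRCh38.p14, all on the minus strand, CG in capitals). They lie at chr11:124897866-124898115 for ROBO4, chr13:106535663-106535912 for EFNB2 and chr1:16156070-16156319 for EPHA2.
ROBO4: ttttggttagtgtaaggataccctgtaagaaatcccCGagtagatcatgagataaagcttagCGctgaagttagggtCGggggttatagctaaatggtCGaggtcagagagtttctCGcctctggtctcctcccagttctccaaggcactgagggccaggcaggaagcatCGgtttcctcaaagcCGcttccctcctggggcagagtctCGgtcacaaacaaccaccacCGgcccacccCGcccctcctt
EFNB2: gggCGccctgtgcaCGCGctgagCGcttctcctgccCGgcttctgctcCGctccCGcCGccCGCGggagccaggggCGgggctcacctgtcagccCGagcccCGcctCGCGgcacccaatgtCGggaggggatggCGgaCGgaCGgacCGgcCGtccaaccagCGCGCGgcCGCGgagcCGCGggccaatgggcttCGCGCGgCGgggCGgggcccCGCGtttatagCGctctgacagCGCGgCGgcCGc
EPHA2: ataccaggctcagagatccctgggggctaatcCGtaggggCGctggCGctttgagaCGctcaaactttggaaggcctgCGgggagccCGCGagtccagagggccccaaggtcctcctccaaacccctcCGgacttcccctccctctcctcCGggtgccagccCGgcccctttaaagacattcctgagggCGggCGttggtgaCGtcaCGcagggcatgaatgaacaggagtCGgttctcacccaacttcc
ROBO4 has 10 CG pairs in this stretch, EFNB2 40 and EPHA2 15, so these stretches differ widely in CG content.

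A promoter was found in the RefSeq table for 64 of the 74 genes, and 40 had a single start there. The median of these 40 was 23 CG pairs in 250 bases. It was 20 for the 8 that rose with tazemetostat, 30 for the 13 that fell and 16 for the 8 not called. The motif GTAAACA, the core that FOXO factors bind, was searched on both strands and was in 0 of the 40, against 3.09% of the 22112 windows. So few windows cannot tell 0 from that share. The median content of G and C was 68.8% in the 40, against 57.2% in the 22112, and its part was not tested. These are descriptions of the letters in this window.

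Of the secreted semaphorins, SEMA3C rose with ipatasertib and with the combination. It had 198, 196 and 218 CPM with ipatasertib, 56.5, 69.0 and 65.2 CPM with tazemetostat and 187, 222 and 189 CPM with the combination, against 69.7, 75.6 and 78.6 CPM under DMSO. The ipatasertib and combination libraries overlapped, far above the rest. The rise was 2.74-fold with ipatasertib and 2.67-fold with the combination (edgeR adjusted p = 2.73e-11 and 7.08e-12). SEMA6C, a membrane semaphorin, had a like pattern at a lower level, with 2.99 to 3.74 CPM with ipatasertib, 0.908 to 1.24 CPM with tazemetostat and 2.90 to 3.47 with both, against 1.05 to 1.55 CPM under DMSO. It rose 2.47-fold with ipatasertib and 2.49-fold with the combination (edgeR adjusted p = 5.59e-06 and 2.1e-06).

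SEMA3A, which binds NRP1, fell with ipatasertib and rose with tazemetostat. It had 35.2, 34.1 and 36.8 CPM with ipatasertib, 73.3, 85.7 and 86.8 CPM with tazemetostat and 74.9, 81.4 and 77.0 CPM with the combination, against 56.4, 61.1 and 59.5 CPM under DMSO. The tazemetostat and combination libraries overlapped above DMSO, and the ipatasertib libraries lay below it. The log2 changes were -0.74 ± 0.07, 0.47 ± 0.07 and 0.40 ± 0.07 (edgeR adjusted p = 3.51e-05 for the combination). SEMA3D was low, at 0.261 to 0.602 CPM with ipatasertib, 0.883 to 1.33 CPM with tazemetostat and 0.545 to 0.609 with both, against 0.981 to 1.32 CPM under DMSO. It fell 2.88-fold with ipatasertib and 2.13-fold with the combination (edgeR adjusted p = 0.000244 and 0.00179). SEMA3D did not reach the count cut in all ipatasertib libraries. Its log2 change with ipatasertib ran from -2.08 to -1.32 when 1 library was left out.

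SEMA4D, the main ligand of PLXNB1, rose with tazemetostat. It had 10.5, 12.1 and 10.5 CPM with ipatasertib, 20.1, 18.4 and 19.9 CPM with tazemetostat and 23.9, 22.2 and 21.7 CPM with the combination, against 9.75, 9.95 and 9.45 CPM under DMSO. The combination libraries lay highest, and those of ipatasertib and DMSO lowest. The rise was 2.00-fold with tazemetostat and 2.32-fold with the combination (edgeR adjusted p = 6.58e-09 and 7.79e-11). SEMA6B, the class 6 semaphorin with the highest level, averaged 26.4 ± 0.576 CPM with ipatasertib, 60.5 ± 3.36 with tazemetostat and 43.0 ± 7.04 with both, against 33.3 ± 1.54 CPM under DMSO (SD, n = 3). SEMA5B and SEMA4B, the highest of their classes, were not called with the combination (log2 changes 0.09 ± 0.33 and -0.06 ± 0.08).

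Among the plexins above 1 CPM, PLXNA2 moved most, and in opposite directions under the single inhibitors. It had 7.48, 7.68 and 6.52 CPM with ipatasertib, 42.9, 44.0 and 43.1 CPM with tazemetostat and 12.03, 12.2 and 11.8 CPM with the combination, against 24.8, 22.1 and 22.4 CPM under DMSO. The 4 sets did not overlap, and the combination lay between ipatasertib and DMSO. The log2 change was -1.67 ± 0.08 with ipatasertib, 0.91 ± 0.07 with tazemetostat and -0.95 ± 0.08 with both (edgeR adjusted p = 1.18e-09). Ipatasertib was below tazemetostat by 5.97-fold (edgeR adjusted p = 4.21e-15), the widest gap between the single inhibitors among the 56 genes at the count cut in all DMSO libraries.

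PLXNA4 was near the counting floor, with 3, 0 and 0 counts with ipatasertib, 10, 21 and 32 with tazemetostat and 8, 16 and 15 with the combination, against 7, 6 and 3 under DMSO. It reached the count cut in all 3 libraries of the combination alone, so these counts are a description, with no test. PLXNB2, the plexin with the highest level, averaged 231 ± 6.20 CPM with ipatasertib, 190 ± 5.98 with tazemetostat and 208 ± 20.4 with both, against 253 ± 8.17 CPM under DMSO (SD, n = 3). It fell with tazemetostat (log2 change -0.42 ± 0.06, edgeR adjusted p = 2.98e-05).

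The neuropilins parted. NRP2, the co-receptor for SEMA3F, had 116, 125 and 129 CPM with ipatasertib, 65.0, 66.3 and 66.0 CPM with tazemetostat and 72.1, 65.8 and 73.8 CPM with the combination, against 129, 142 and 141 CPM under DMSO. The tazemetostat and combination libraries lay below all the others. It fell 2.08-fold with tazemetostat and 1.94-fold with the combination (edgeR adjusted p = 7.86e-11 and 6.3e-11). NRP1, the co-receptor for SEMA3A and VEGF, had 210, 219 and 224 CPM with ipatasertib, 187, 206 and 204 CPM with tazemetostat and 305, 317 and 316 CPM with the combination, against 221, 231 and 233 CPM under DMSO. The combination libraries lay above all the others. NRP1 rose 1.37-fold with the combination (log2 change 0.45 ± 0.05, edgeR adjusted p = 4.32e-07), and its log2 change was -0.07 ± 0.06 with ipatasertib and -0.20 ± 0.05 with tazemetostat.

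**Figure D4:**
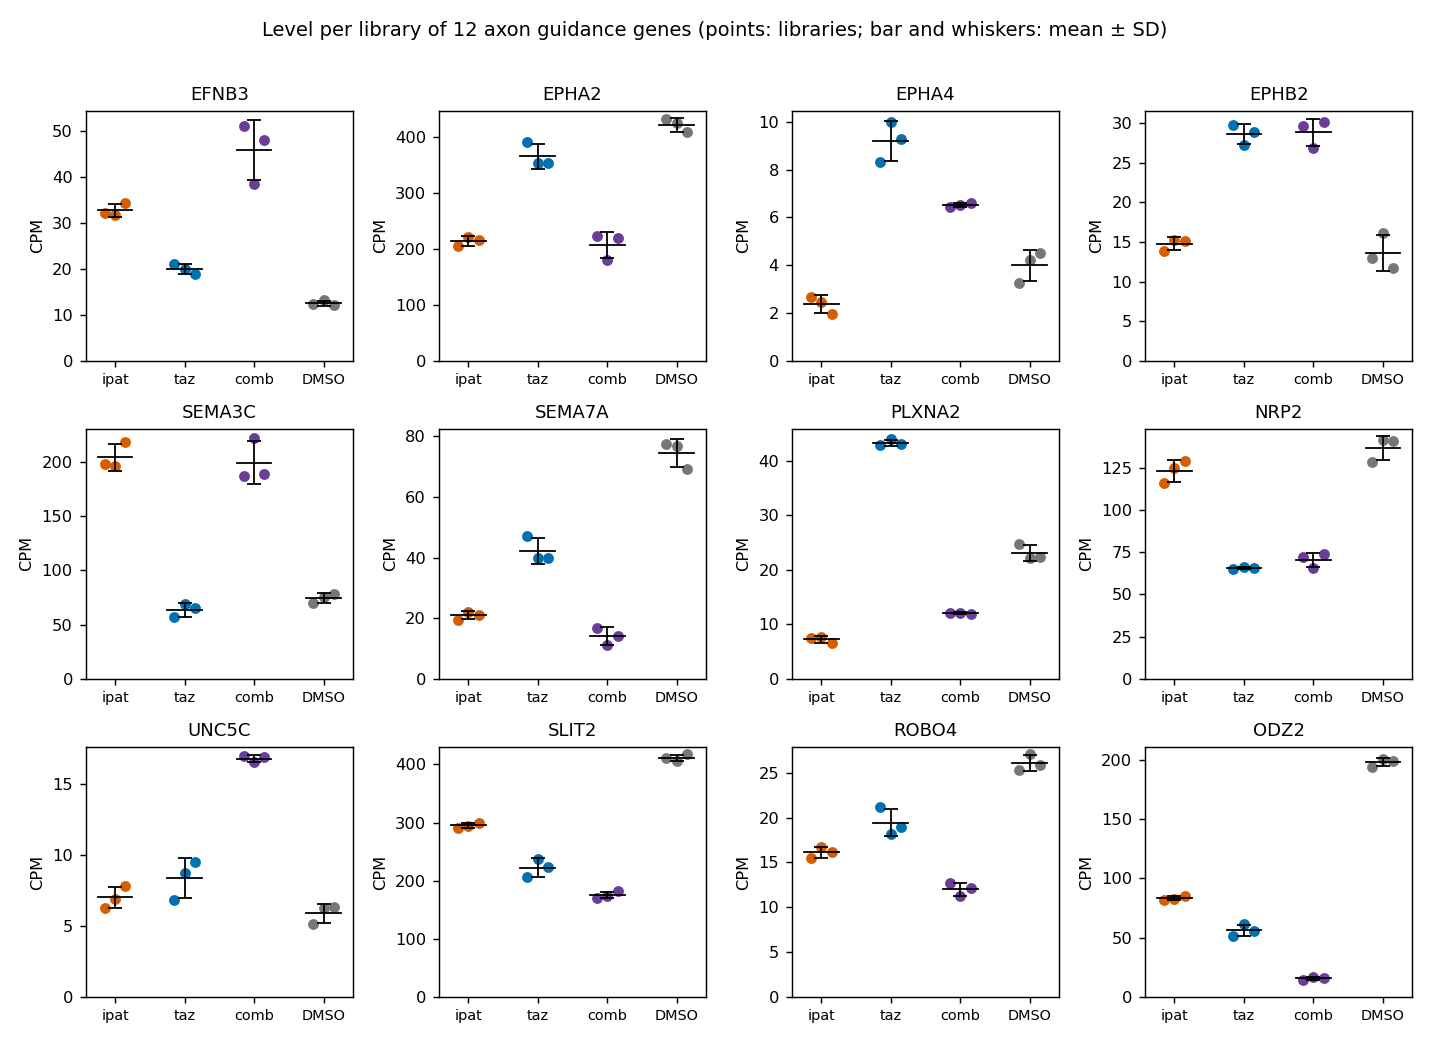
CPM per library of 12 axon guidance genes with ipatasertib, tazemetostat, the combination and DMSO (points are libraries; bar and whiskers are mean ± SD, n = 3; each panel starts at 0). SEMA3C averaged 204 CPM with ipatasertib and 199 CPM with the combination, against 74.6 CPM under DMSO, and PLXNA2 averaged 7.23 CPM with ipatasertib and 43.4 CPM with tazemetostat, against 23.1 CPM under DMSO.

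SLIT2, the SLIT ligand with the highest level, fell under all treatments. It had 291, 293 and 300 CPM with ipatasertib, 206, 238 and 223 CPM with tazemetostat and 171, 173 and 181 CPM with the combination, against 411, 407 and 418 CPM under DMSO. The 4 sets did not overlap. The log2 change was -0.48 ± 0.06, -0.89 ± 0.06 and -1.23 ± 0.06 (edgeR adjusted p = 3.03e-13 for the combination). SLIT3, another SLIT ligand, rose by 0.59 ± 0.07 with tazemetostat and by 0.75 ± 0.07 on the log2 scale with the combination, at 26.9 to 28.8 CPM and 30.6 to 31.6 CPM, against 17.0 to 20.4 CPM under DMSO.

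All 3 tested ROBO receptors fell in each comparison with DMSO. ROBO3, the lowest of them, had log2 changes of -0.30 ± 0.12 with ipatasertib, -0.35 ± 0.11 with tazemetostat and -0.73 ± 0.12 with both (edgeR adjusted p = 0.037, 0.0162 and 2.19e-05 in this order). Its call with ipatasertib was lost in 9 of 20 alternatives, among them total counts (-0.19, adjusted p = 0.2) and leaving out DMSO A, DMSO B, ipatasertib A, B or C, tazemetostat C or combination C (adjusted p between 0.0512 and 0.127). Its call with tazemetostat was lost with total counts (-0.28, adjusted p = 0.0526) and without tazemetostat B (-0.24, adjusted p = 0.0762). ROBO1, the one with the highest level, averaged 137 ± 5.91 CPM with ipatasertib, 154 ± 13.1 with tazemetostat and 115 ± 2.37 with both, against 189 ± 6.67 CPM under DMSO (SD, n = 3). ROBO4, known from endothelium, had 15.5, 16.8 and 16.1 CPM with ipatasertib, 21.2, 18.2 and 19.0 CPM with tazemetostat and 12.7, 11.2 and 12.1 CPM with the combination, against 25.3, 27.1 and 25.9 CPM under DMSO. It fell 2.17-fold with the combination (edgeR adjusted p = 2e-10). The summed level of 5 endothelial markers was 3.09 to 3.91 CPM with ipatasertib, 1.44 to 1.93 CPM with tazemetostat and 4.83 to 6.73 with both, against 0.992 to 1.47 CPM under DMSO. PECAM1 made up most of that sum, and TEK had 1 count in each treated set, against 6 under DMSO. Their part in the ROBO4 change was not tested.

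The combination was set against each inhibitor alone. Against ipatasertib, 22 of 58 genes were higher and 12 lower, where 21.8% of all genes were higher and 17.3% lower. Against tazemetostat, 18 were higher and 17 lower, where 29.8% of all genes were higher and 30.8% lower. With total counts in place of TMM factors, 25 were higher than tazemetostat and 15 lower. Between the single inhibitors, 21 genes were higher with ipatasertib and 20 lower, where 24.6% of all genes were higher and 31.7% lower.

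The combination's log2 change departed from the sum of the single changes for 5 of the 58 genes, where 3.62% of all genes were called. NRP1 exceeded the sum by 0.73 ± 0.08, SEMA3A by 0.66 ± 0.10, PLXNA3 by 0.58 ± 0.11 and UNC5C by 0.76 ± 0.17, and ODZ2 fell below it, at -0.59 ± 0.10 (edgeR adjusted p = 1.22e-05, 0.000563, 0.00613, 0.0158 and 0.00199 in this order). PLXNA3, a plexin that signals together with neuropilins, had 70.5, 71.0 and 78.6 CPM with ipatasertib, 52.5, 50.3 and 54.6 CPM with tazemetostat and 98.4, 76.6 and 87.7 CPM with the combination, against 69.5, 66.6 and 60.6 CPM under DMSO, and it overlaps LAGE3 on the opposite strand. UNC5C lost the call without ipatasertib A (0.69, adjusted p = 0.0632). The count of 5 became 10 without tazemetostat A, 16 without combination B and 21 without both, and 8 by DESeq2. Without both of these libraries 4766 of all genes were called, against 539 with all libraries.

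**Figure D5:**
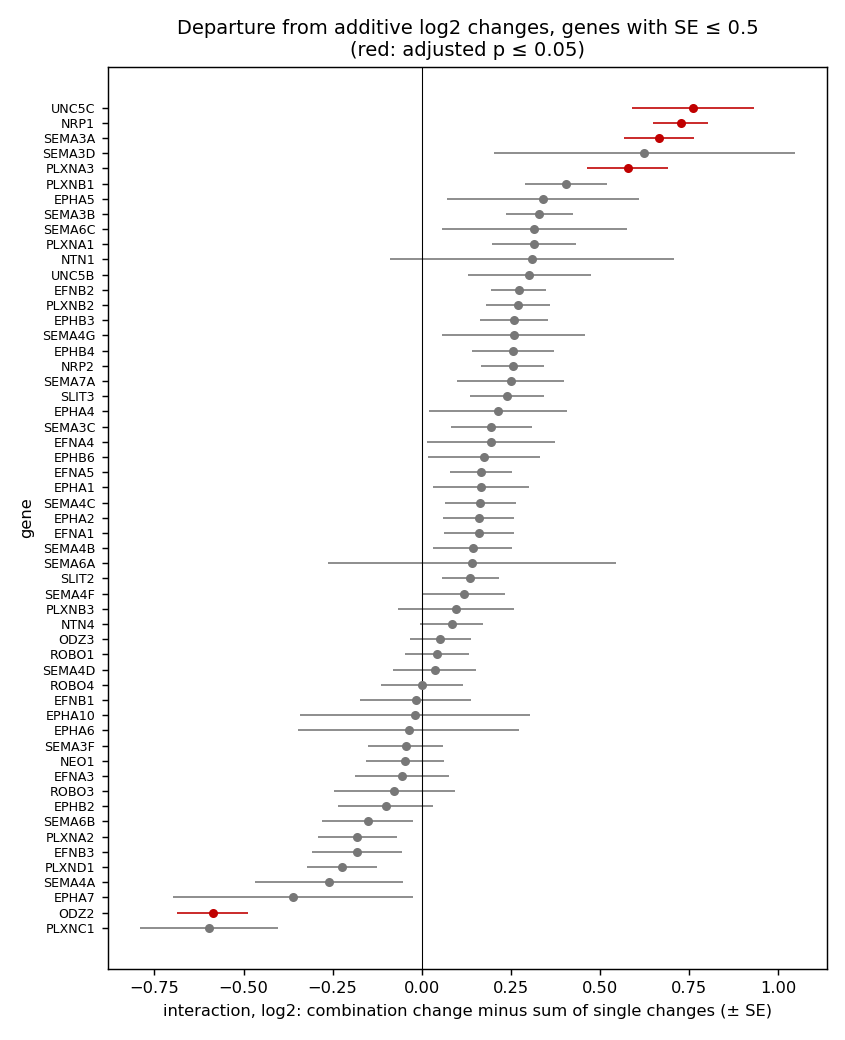
Interaction on the log2 scale, the combination's change minus the sum of the changes with ipatasertib and tazemetostat alone, with its SE, for the 55 tested genes with an SE of 0.5 or less. Red points passed an adjusted p of 0.05, and they run from ODZ2 at -0.59 to UNC5C at 0.76.

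Beyond ligands and receptors, 65 genes of the same pathway were listed, mostly signalling partners, and 60 were tested. With ipatasertib 9 rose and 27 fell, with tazemetostat 25 rose and 16 fell, and with the combination 26 rose and 23 fell, out of these 60. The shares of all tested genes that rose and fell were 25.4% and 28.7%, 25.1% and 20.9%, and 36.5% and 34.5% in the same order. With total counts in place of TMM factors, 14 of the 60 rose and 20 fell with ipatasertib. RGMA and FLT1, which passed the filter only through the libraries where they were high, are among the 60. CRMP1, a mediator of semaphorin signalling to the cytoskeleton, had 0.452, 0.532 and 0.869 CPM with ipatasertib, 4.08, 4.05 and 4.32 CPM with tazemetostat and 4.26, 4.87 and 5.15 CPM with the combination, against 0.539, 0.421 and 0.327 CPM under DMSO. It rose 9.37-fold with tazemetostat and 10.8-fold with the combination (edgeR adjusted p = 1.57e-10 and 1.25e-11). Its relative DPYSL3 fell with ipatasertib (log2 change -0.94 ± 0.08) and rose with tazemetostat (1.01 ± 0.07) and with the combination (0.37 ± 0.07).

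Other partners also differed. FLT1, a VEGF receptor, had 5 counts in all with ipatasertib, 144 with tazemetostat and 60 with both, against 12 under DMSO, and it too passed the filter only through the libraries where it was high, so no test is given. EVL, an actin regulator, rose 3.93-fold with tazemetostat and 3.34-fold with the combination, and FYN, a kinase downstream of several guidance receptors, 2.05-fold and 3.02-fold. GRIP1, a scaffold that binds ephrin-B, rose 2.22-fold with the combination, and RND1, a GTPase that binds plexins, rose 2.33-fold. NRCAM, an adhesion molecule, rose 2.58-fold with ipatasertib, 2.07-fold with tazemetostat and 4.54-fold with both. VAV3, an exchange factor downstream of Eph receptors, rose 2.04-fold with ipatasertib and 3.17-fold with the combination. MICAL2, of a family that oxidises actin, fell 2.07-fold with ipatasertib and 2.55-fold with the combination, and PAK3, a kinase activated by RAC, fell 2.02-fold with the combination.

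The 16 genes not tested were DCC, EFNA2, EPHA3, EPHA8, EPHB1, NTN5, ODZ1, ODZ4, ROBO2, SEMA3E, SEMA3G, SEMA5A, SEMA6D, SLIT1, UNC5A and UNC5D. ROBO2 had 0 counts in all 12 libraries, and the ceiling for a count of 0, which is 3 counts, equals 0.0602 to 0.130 CPM. UNC5A had 4 counts in all with ipatasertib, 32 with tazemetostat and 19 with both, against 0 under DMSO. EPHA8 had 0, 13 and 15 in the same sets, against 0 under DMSO, and EFNA2 had 3, 21 and 24, against 3 under DMSO. Such counts are too low for a comparison here.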

How the data were processed

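Polyadenylated RNA was extracted with an RNeasy Plus kit and made into Kapa Hyper Prep libraries, per the labels' protocols. The authors deposited raw read counts per gene for each of the 12 libraries. The submitters' processing notes name STAR, SAMtools, HTSeq, DESeq2 and the build hg19, whereas versions, annotation and strand are not given in the sources here. They also deposited a table of normalised signal, used only to check the counts; of its 23228 lines, 23202 matched by symbol. The 5 summary lines, 29.8% to 38.6% of reads, were left out.

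Counts were analysed in R 4.3.3 with edgeR 4.0.16: filterByExpr (minimum count 10, a cut of 0.283 CPM in at least 3 libraries), TMM factors, and 1 quasi-likelihood fit of all 12 libraries with 1 coefficient per group and no block. The F-test was applied to 7 comparisons, Benjamini-Hochberg adjusted over 14874 genes, at 0.05; the common biological coefficient of variation was 0.0645. Standard errors (SE) were obtained from the log2 change and its F value. The code was tested on simulated data with 200 changed genes.

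The members, pathway list and markers were chosen with earlier results of these data known. Genes are given with values where they passed the test with at least a 2-fold change against DMSO, passed in the interaction, or had the highest level of their family; others were named after their values were seen, and not every gene of the pathway list that met this rule is reported here. The limit for a count of 0 covers counting error only. Sequences come from the RefSeq table of GRCh38.p14, transcript lengths and overlaps from GENCODE v29, a build other than that of the counts. Alternatives were other scalings, filters, DESeq2 1.42.0, a replicate block, fewer groups or libraries, and a 1.5-fold threshold.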

Additional observations from a re-analysis of the deposited data

Results flagged for a closer look

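For 5 axon guidance genes the 2 inhibitors together gave another log2 change than the sum of their changes alone, by edgeR's test of that difference. NRP1 had an interaction of 0.73, SEMA3A of 0.66, PLXNA3 of 0.58 and UNC5C of 0.76, and ODZ2 of -0.59. NRP1, for example, averaged 313 ± 6.62 CPM with the combination, 218 ± 6.90 CPM with ipatasertib and 199 ± 10.5 CPM with tazemetostat, against 229 ± 6.34 CPM under DMSO (SD, n = 3).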

How the results depend on the processing

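Of 177 called changes of the 37 genes given with values, 60 were under 1.5-fold and so fell out with that threshold. Calls of PLXNA4, a gene described above with no test, are among the 177. Under the other alternatives 0 reversed and 27 lost the call in at least 1, and 3423 of 3528 pairs of change and alternative kept it. The lost calls were mostly small, such as NRP2, NTN4 and EPHB4 with ipatasertib. The causes were not tested. The count of genes higher with ipatasertib was 17 with total counts, without both libraries that stand apart and with only the groups compared in the fit, against 11; lower, it was 14 with total counts and 11 with a 1.5-fold threshold, against 23, and 15 to 24 with 1 library left out. With the 1.5-fold threshold, 6 were lower with tazemetostat and 19 higher with the combination; 5 were lower than ipatasertib with the combination; 11 were higher and 6 lower than tazemetostat with the combination; 7 were higher with ipatasertib than with tazemetostat. With that threshold, the genes called among all were 2762, 2165, 5505, 2048, 3743, 3162 and, for the interaction, 174, in the order ipatasertib, tazemetostat and combination against DMSO, combination against ipatasertib and tazemetostat, ipatasertib against tazemetostat. The interaction called 8 axon guidance genes by DESeq2 and 21 without both libraries that stand apart, against 5, and 4 to 16 with 1 library left out. It called 905 genes without a filter, 928 by DESeq2 and 4766 without both libraries, against 539, and 243 (without ipatasertib A) to 2443 (without combination B) with 1 left out.

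Deviations of same-letter libraries from their set means correlated at -0.067 to 0.302, with 2 of 18 pairs over 0.1. These 2 were tazemetostat A with combination A (0.302) and tazemetostat B with combination B (0.207). Pairs of other letters correlated at -0.339 to 0.184, and 8 of 36 matches were best with the own letter. Such values cannot decide whether the letters mark shared cultures or days. With the letter as a replicate block, the interaction called 8 axon guidance genes, and no called change of the 37 genes was lost.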
